A study of Mus musculus with 6 samples.

Results

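The 10 genes described here, given by name, encode proteins of the cardiac Z-disc, the giant spring protein titin and proteins that accumulate in mechanically loaded myocytes, and their expression was followed in hearts of mice in which Mrps5, the gene of a mitochondrial ribosomal protein, had been deleted in cardiomyocytes. They were Ttn, Actn2, Ldb3, Myoz2, Tcap, Csrp3, Nexn, Ankrd1, Xirp1 and Xirp2. All 10 were found by name among the 54532 genes of the expression table, and all 10 passed the filter on low values. The levels of 4 of them were called different between the genotypes, beside 33.3% of all genes tested. Tcap was lower in the cKO hearts, at 29.2% of the Ctrl level. Ankrd1, Xirp1 and Xirp2 were higher, at 3.98, 1.86 and 4.55 times the Ctrl level. The other 6 were not called different. The call of Xirp1 was lost under 8 of 16 alternative settings.

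The Z-disc is the protein lattice that borders each sarcomere, where actin filaments of neighbouring sarcomeres are crosslinked by alpha-actinin and where the amino-terminal end of titin is anchored. Titin runs from there to the M-band in the middle of the sarcomere and acts as a molecular spring, and its Z-disc end is capped by telethonin, the product of Tcap. Several Z-disc proteins also serve as signalling platforms for calcineurin, muscle LIM proteins and the ankyrin repeat proteins, and Ankrd1 and the Xin repeat genes are widely used as expression marks of a stretched or hypertrophic myocardium.

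The hearts came from 6 mice in 2 groups of 3, all homozygous for loxP-flanked Mrps5 (Mrps5 fl/fl). The cKO mice carried in addition MCM, a Cre recombinase that is made in cardiomyocytes from the alpha-myosin heavy chain promoter and enters the nucleus only with tamoxifen, while the Ctrl mice lacked it. Mice of both groups received tamoxifen by intraperitoneal injection at 45 mg/kg/day for 5 days from an age of 8 weeks, and the labels place the sampling 12 weeks later, whereas the study's RNA methods give 12 weeks as the age of the mice. The Ctrl group therefore shares the floxed alleles and the drug with the cKO group but not the Cre protein, so loss of Mrps5 and presence of active Cre cannot be told apart here, and cells other than cardiomyocytes are not targeted in either group.

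Each heart gave 1 poly-A RNA library of 15989322 to 24875499 reads assigned to genes, with 20410 to 21675 genes detected. Levels are given as FPKM, the number of fragments per kilobase of exon, set relative to a library size. This is a level per length and so allows different genes to be set side by side. The library size implied by the values was 0.913 to 0.980 of the assigned reads in Ctrl hearts and 1.06 in cKO hearts. Levels in cKO relative to Ctrl are therefore lower in FPKM than as shares of assigned reads. Mrps5 itself was at 5.99 ± 0.690 FPKM in Ctrl and 1.22 ± 0.0947 FPKM in cKO hearts (SD, n = 3 each), with no overlap between the groups. Atrial markers were high in 1 heart of each group, with Myl7 at 679 FPKM in Ctrl replicate 1 and 495 FPKM in cKO replicate 3, and cKO replicate 2 was the only heart with Xist (10.7 FPKM) and without Y-linked transcripts. Skeletal muscle markers summed to no more than 2.12 FPKM in any heart, and Myh1 was at 0 in all of them. Changes are reported as log2 fold changes of cKO against Ctrl on the log2(FPKM + 1) scale, and a gene was called different at an adjusted p under 0.05 (limma, Benjamini-Hochberg over 12944 genes).

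Of the 10 genes, 3 were called higher and 1 was called lower in cKO hearts. Over all genes tested, 33.3% were called, 16.3% as higher and 17% as lower, so a call alone was not rare in these hearts. The ranges of the 2 groups were separate for the same 4 genes, 3 with cKO above and 1 with cKO below, against 51.2% of all genes, 24.8% with cKO above and 26.4% with cKO below. The 7 genes of structural Z-disc components and titin held the single decrease and no increase, with a median log2 fold change of -0.26. The 3 stress-associated genes Ankrd1, Xirp1 and Xirp2 were all called higher, with a median of 2.00. The 10 genes were divided into these sets with earlier results of the data known. The contrast between the sets is therefore a description and not a test. The median over all genes tested was -0.02.

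**Figure D1:**
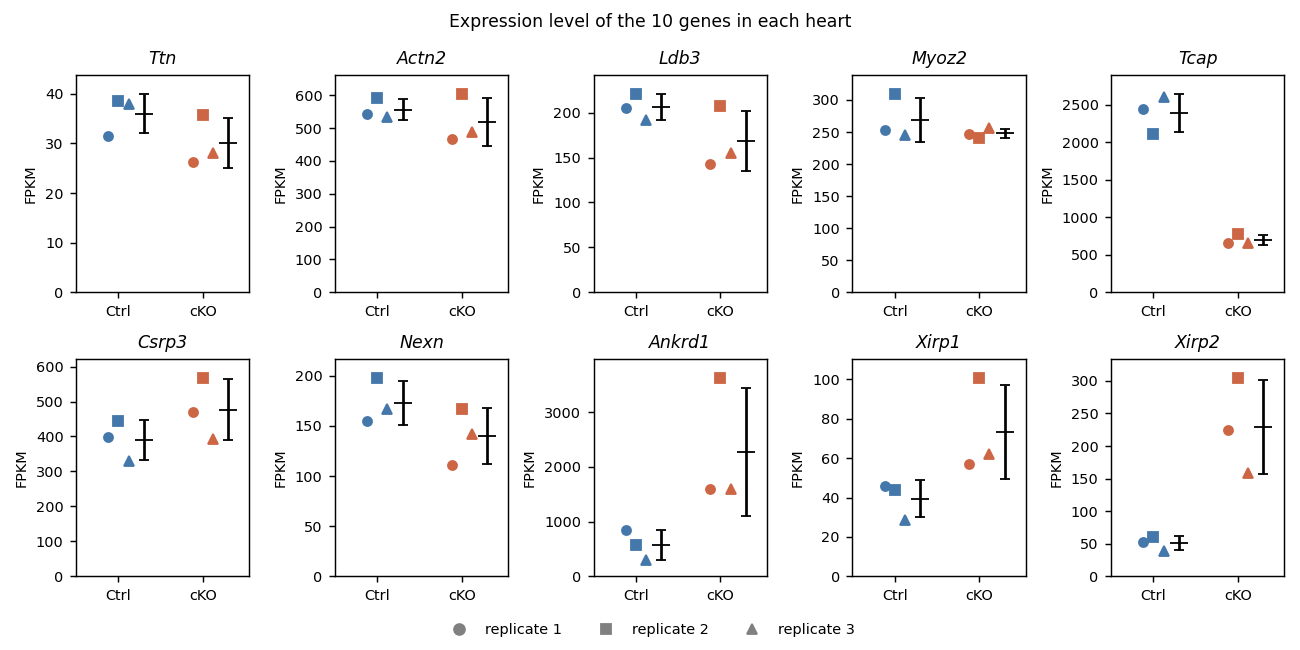
Level of each of the 10 genes in FPKM (vertical axes, from 0) in the 3 Ctrl hearts (blue) and the 3 cKO hearts (orange), with a symbol for each replicate number and the group mean ± SD in black. The cKO hearts lie below all Ctrl hearts for Tcap and above them for Ankrd1, Xirp1 and Xirp2, and the groups overlap for the other 6 genes.

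Tcap (chr11:98383811-98384953, plus strand, 2 exons) encodes telethonin, the small protein that joins 2 titin molecules at the edge of the Z-disc. It was among the most abundant messages of the Ctrl hearts, with levels of 2442, 2114 and 2604 FPKM in replicates 1, 2 and 3 (41679 to 59719 reads). The levels in the cKO hearts, in the same order of replicates, were 656, 776 and 659 FPKM (10521 to 17168 reads). The 3 cKO hearts lay close together, and the highest of them was far below the lowest Ctrl heart. The mean level was 2387 ± 250 FPKM in Ctrl and 697 ± 68.3 FPKM in cKO (SD, n = 3 each), 3.43 times lower in cKO, with a log2 fold change of -1.77 (SE 0.117, 95% confidence interval -2.05 to -1.50, limma adjusted p 0.000384). Among 22046 protein-coding genes ordered by their mean level, Tcap went from rank 18 in Ctrl to rank 52 in cKO.

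Markers of cardiomyocytes moved in the same direction as Tcap in these hearts. The summed FPKM of 10 cardiomyocyte markers was 19540 to 24684 in Ctrl and 12492 to 20400 in cKO hearts, and all 10 were detected. Beside 17% of all genes called lower and 16.3% called higher, 6 of the 10 markers were called lower and none higher. Their median log2 fold change was -0.60, and Pln at -1.43 was the largest decrease among them. The estimate for Tcap lay below that of each of the 10 markers. Actn2, at a log2 fold change of -0.11, did not follow their median. The ratio to Actn2 given further on is therefore no measure of cardiomyocyte content. In such bulk tissue, fewer cells of a type and less RNA per cell cannot be told apart. The part of cell composition in the Tcap value was not tested.

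Ttn (chr2:76703980-76982547, minus strand, 347 exons in the longest annotated transcript) encodes titin, the largest known protein, which sets the passive stiffness of the myocyte. Its levels were 31.4, 38.6 and 37.8 FPKM across the Ctrl hearts, given here and below in the order of the replicate numbers, and 26.2, 35.8 and 28.1 FPKM across the cKO hearts. The ranges overlapped because cKO replicate 2 lay above Ctrl replicate 1. Its mean was 36.0 ± 3.94 FPKM in Ctrl and 30.0 ± 5.06 FPKM in cKO hearts, a log2 fold change of -0.26 (SE 0.136, 95% confidence interval -0.58 to 0.06, limma adjusted p 0.186). The interval leaves room for a moderate decrease, and its upper bound lies below the lower bounds of the 3 stress-associated genes described further on. Without cKO replicate 2, the call changed to lower, at -0.39 with an adjusted p of 0.0423.

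Because the gene is very long, Ttn drew many reads at a moderate level per length, 70005 to 106966 in Ctrl and 51865 to 97623 in cKO hearts. Values per gene do not tell its 21 annotated protein-coding transcripts apart, so the balance between the stiff and the compliant titin isoforms was not measured. Rbm20, the splicing factor that decides between these isoforms, was lower in cKO, at 28.0 ± 1.27 FPKM in Ctrl and 21.1 ± 3.14 FPKM in cKO hearts, with a log2 fold change of -0.40 (SE 0.113, limma adjusted p 0.0348); it was named here after its value was seen. Gene length went with small shifts across the transcriptome, and the 100 longest protein-coding genes tested had a median log2 fold change of -0.05.

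Actn2 (chr13:12269426-12340760, minus strand) encodes sarcomeric alpha-actinin, which crosslinks actin filaments at the Z-disc. Its Ctrl hearts were at 542, 593 and 533 FPKM and its cKO hearts at 466, 603 and 487 FPKM. The highest value of all 6 hearts was that of cKO replicate 2 and the lowest that of cKO replicate 1, so the cKO hearts spanned the whole Ctrl range. The log2 fold change was -0.11 (SE 0.117, 95% confidence interval -0.38 to 0.17, limma adjusted p 0.512), so a modest change either way is within its error.

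Ldb3 (chr14:34526603-34588682, minus strand), also known as Cypher or ZASP, encodes a PDZ and LIM domain protein that binds alpha-actinin. The Ctrl hearts had 206, 220 and 192 FPKM of it and the cKO hearts 143, 207 and 155 FPKM. Replicates 1 and 3 of the cKO group lay below every Ctrl heart, and replicate 2 lay within the Ctrl range. The log2 fold change was -0.30 (SE 0.145, 95% confidence interval -0.65 to 0.04, limma adjusted p 0.148), and without cKO replicate 2 it was -0.46 with an adjusted p of 0.0154, past the threshold.

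Nexn (chr3:152236982-152266350, minus strand) encodes nexilin, an actin-binding protein of the Z-disc and of the junctional membrane. Values were 155, 197 and 166 FPKM in Ctrl and 111, 167 and 141 FPKM in cKO hearts, with cKO replicate 2 again inside the Ctrl range. Its log2 fold change was -0.32 (SE 0.164, 95% confidence interval -0.71 to 0.07, limma adjusted p 0.175). Nexn shares 287 exon bases on its own strand with the gene model Gm43185, which reached at most 2.75 FPKM.

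Myoz2 (chr3:123006206-123035015, minus strand) encodes calsarcin-1, which ties calcineurin to alpha-actinin. Its levels were 253, 309 and 246 FPKM across the Ctrl hearts and 246, 241 and 256 FPKM across the cKO hearts. The cKO hearts were nearly level and overlapped the lower part of the Ctrl range, and the highest value was that of Ctrl replicate 2. With a log2 fold change of -0.11 (SE 0.104, 95% confidence interval -0.36 to 0.13, limma adjusted p 0.439), it was the structural gene with the narrowest interval.

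Csrp3 (chr7:48830398-48848033, minus strand) encodes muscle LIM protein, a Z-disc protein that has been proposed as a part of the stretch sensor. It was the structural gene with a positive estimate, at 399, 443 and 329 FPKM in Ctrl and 471, 566 and 394 FPKM in cKO hearts. The groups overlapped in FPKM, since cKO replicate 3 lay below Ctrl replicates 1 and 2. The log2 fold change was 0.28 (SE 0.164, 95% confidence interval -0.10 to 0.67, limma adjusted p 0.224). As a share of assigned reads, Csrp3 was at 0.104%, 0.108% and 0.0855% in Ctrl and 0.133%, 0.161% and 0.111% in cKO hearts, without overlap. By that measure the groups still overlapped for Ttn, Actn2, Ldb3, Myoz2 and Nexn.

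The stress-associated genes form the other side of the comparison. Ankrd1 (chr19:36111965-36119844, minus strand) encodes CARP, an ankyrin repeat protein that binds the elastic N2A region of titin and also enters the nucleus. The Ctrl hearts had 837, 573 and 300.5 FPKM of it. The cKO hearts reached 1596, 3620 and 1594 FPKM. Every cKO heart lay above every Ctrl heart, but the spread was wide in both groups, with a coefficient of variation of 47.1% in Ctrl and 51.5% in cKO.

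The Ankrd1 means were 570 ± 268 and 2270 ± 1169 FPKM (SD, n = 3 each), 3.98 times higher in cKO, with a log2 fold change of 2.00 (SE 0.449, 95% confidence interval 0.93 to 3.06, limma adjusted p 0.0156). It moved from rank 70 to rank 15 of the protein-coding genes and in cKO hearts it was above Tcap, which it was below in each Ctrl heart. Reads were 12830 to 28179 in Ctrl and 47678 to 149185 in cKO hearts, so counting error is small beside the spread between hearts. Leaving out cKO replicate 2 lowered the log2 fold change to 1.60, with an adjusted p of 0.0292, and with no filter on low values the adjusted p was 0.0504.

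Xirp2 (chr2:67446002-67526614, plus strand) encodes a Xin repeat protein, also called myomaxin, of the intercalated disc and Z-disc. The Ctrl hearts had 52.8, 59.7 and 38.6 FPKM of it and the cKO hearts 224, 304 and 159 FPKM. The lowest cKO heart stood well clear of the highest Ctrl heart. Its means of 50.4 ± 10.8 and 229 ± 72.4 FPKM differed 4.55 times, a log2 fold change of 2.14 (SE 0.255, 95% confidence interval 1.53 to 2.74, limma adjusted p 0.00209), the largest increase among the 10 genes.

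Xirp1 (chr9:120013755-120023598, minus strand) encodes the founding Xin protein of the intercalated disc. Its Ctrl hearts were at 45.8, 43.8 and 28.6 FPKM and its cKO hearts at 56.8, 101 and 62.3 FPKM. The groups did not overlap, yet the gap between the lowest cKO and the highest Ctrl heart was small beside the spread. The means were 39.4 ± 9.39 and 73.2 ± 23.8 FPKM, with a log2 fold change of 0.86 (SE 0.257, 95% confidence interval 0.25 to 1.47, limma adjusted p 0.0407). The call was lost when Ctrl replicate 1, 2 or 3 or cKO replicate 2 or 3 was left out, with adjusted p values up to 0.109, while the direction was kept.

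**Figure D2:**
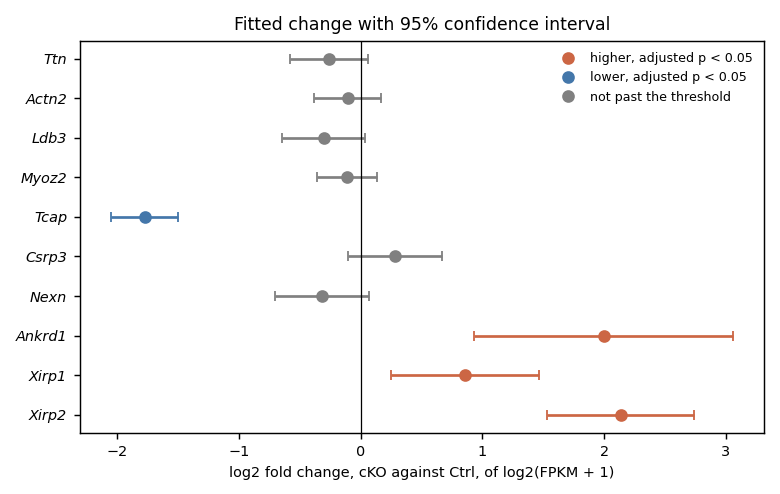
Fitted log2 fold change of cKO against Ctrl on the log2(FPKM + 1) scale (horizontal axis) for each of the 10 genes (rows), with 95% confidence intervals as bars. Tcap alone lies below 0 with its whole interval, Ankrd1, Xirp1 and Xirp2 lie above it, and the intervals of the other 6 genes include 0.

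The start-site sequences of the genes that moved most can be set beside that of titin, which was not called different. RefSeq promoter windows of the mouse build GRCm38.p6, which reach from 250 bases before to 50 bases after an annotated start, were at hand for 7 of the 10 genes and not for Tcap, Nexn and Xirp1. The windows of Ankrd1 (chr19:36119795-36120094, minus strand), Xirp2 (chr2:67445752-67446051, plus strand) and Ttn (chr2:76982498-76982797, minus strand) are shown 5′ to 3′ on the strand of the gene. Capitals mark the MCAT element of the TEAD factors (CATTCC, or GGAATG on the other strand), the AP-1 element (TGANTCA), the MEF2 site and the TATA element (TATAA), searched on both strands. The E-box (CANNTG), the GATA letters AGATAA and the CArG box of SRF were searched in the same way and are left in lower case.
Ankrd1: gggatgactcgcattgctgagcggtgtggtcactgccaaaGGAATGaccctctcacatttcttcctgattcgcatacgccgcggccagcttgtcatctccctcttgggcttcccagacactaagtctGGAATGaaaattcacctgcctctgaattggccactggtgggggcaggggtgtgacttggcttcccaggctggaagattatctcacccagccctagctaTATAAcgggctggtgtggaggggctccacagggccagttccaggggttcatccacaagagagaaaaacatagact
Xirp2: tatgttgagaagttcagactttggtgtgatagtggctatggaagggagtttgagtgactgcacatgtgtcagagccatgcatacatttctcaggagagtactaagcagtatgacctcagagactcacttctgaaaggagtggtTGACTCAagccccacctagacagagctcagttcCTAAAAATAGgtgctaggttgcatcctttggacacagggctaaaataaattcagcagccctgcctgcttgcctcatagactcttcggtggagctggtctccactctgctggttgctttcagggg
Ttn: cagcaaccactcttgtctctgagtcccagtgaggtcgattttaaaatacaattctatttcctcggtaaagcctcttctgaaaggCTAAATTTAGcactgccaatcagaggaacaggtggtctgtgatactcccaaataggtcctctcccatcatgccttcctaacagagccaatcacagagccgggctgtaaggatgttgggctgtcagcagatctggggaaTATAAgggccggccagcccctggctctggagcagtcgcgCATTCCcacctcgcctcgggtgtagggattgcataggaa

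The Ankrd1 window holds MCAT letters at -210 and -123, giving the first base of each match with the start base as 0, and a TATA element at -25. The Xirp2 window has neither of these but holds an AP-1 element at -107 and a MEF2 site at -74. The Ttn window holds a MEF2 site at -166, a TATA element at -28 and MCAT letters at 11. Of 32851 mouse promoter windows of the same length, 14.7% held an MCAT element, 7.81% an AP-1 element, 24.9% a TATA element and 3.19% a MEF2 site. MEF2 letters were present in 3 of the 7 genes with a window (Myoz2, Ttn and Xirp2), AP-1 letters in 3 (Ldb3, Myoz2 and Xirp2) and MCAT letters in 2 (Ankrd1 and Ttn). Further matches were E-boxes in 6 of the 7 genes, beside 72.3% of all windows, the CArG box in Ldb3 alone, beside 1.63%, and the GATA letters in Ankrd1 alone, beside 11.2%. In the printed windows the only matches that overlapped were the E-boxes of Xirp2 at -190 and -188. The matches describe the letters of the windows, and binding of a factor was not measured.

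To see each gene against a Z-disc component of the same cells, its FPKM was divided by that of Actn2 in the same heart, a description added after the data were seen. The Tcap to Actn2 ratio was 4.50, 3.56 and 4.88 across the Ctrl hearts and 1.41, 1.29 and 1.35 across the cKO hearts. The 3 cKO hearts lay within a narrow range, and the mean ratio was 3.20 times lower than in Ctrl. The Ankrd1 to Actn2 ratio went from 1.02 ± 0.493 to 4.23 ± 1.53, 4.13 times higher, and that of Xirp2 from 0.0901 ± 0.0155 to 0.437 ± 0.0962, 4.85 times higher. For Xirp1 the mean ratio was 1.96 times higher.

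Among the genes that were not called different, the ratio to Actn2 had no overlap between the groups in 2 of 5 cases. The share of all genes with a separate ratio was not computed, and the 51.2% given above is for levels. For Csrp3 it was 0.736, 0.746 and 0.617 in Ctrl and 1.01, 0.939 and 0.808 in cKO hearts, with every cKO heart above every Ctrl heart. For Ldb3 it was 0.379, 0.371 and 0.360 in Ctrl and 0.307, 0.343 and 0.318 in cKO hearts, with every cKO heart below. The ratios of Ttn, Myoz2 and Nexn overlapped between the groups. Changes in the ratio show unequal change of 2 genes and not which of them moved.

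**Figure D3:**
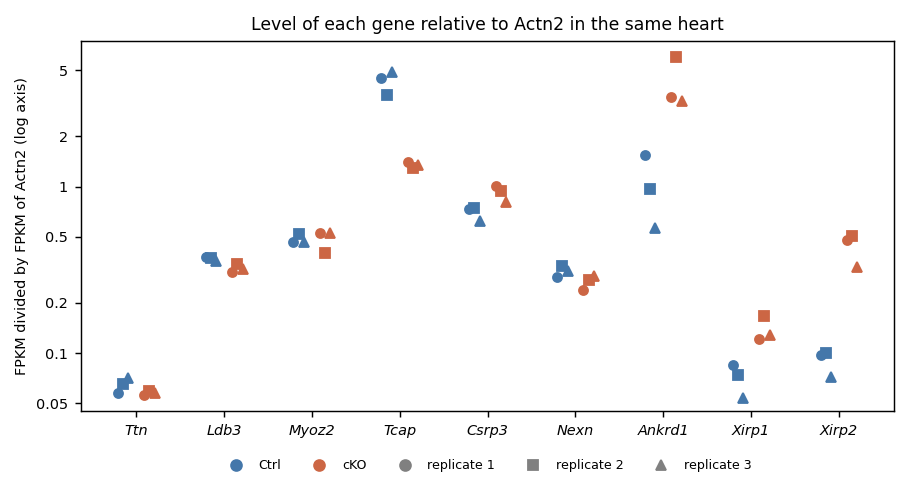
FPKM of each gene divided by the FPKM of Actn2 in the same heart (vertical log axis) for the 3 Ctrl hearts (blue) and the 3 cKO hearts (orange), with a symbol for each replicate number. The Tcap ratio lies between 3.56 and 4.88 in Ctrl and between 1.29 and 1.41 in cKO hearts, and the ratios of Csrp3, Ankrd1, Xirp1 and Xirp2 lie higher in every cKO heart than in any Ctrl heart.

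In each group a single heart was at the edge of the range for most of these genes. Replicate 2 was the highest of the cKO hearts for 9 of the 10 genes, Myoz2 being the exception, where 33.6% of all genes tested had it highest. Replicate 3 was the lowest of the Ctrl hearts for 7 of the 10 genes, against 34.0% of all genes. Both hearts were picked out after the values were seen. Genes of the same cells are not independent of each other, so these counts are no test. The summed cardiomyocyte markers were also highest in cKO replicate 2 (20400 FPKM) and lowest in Ctrl replicate 3 (19540 FPKM) within their groups. cKO replicate 2 is the heart with Xist and without Y-linked transcripts, which differs from the study's statement that it used male mice, and the part of sex in its values was not tested. Without cKO replicate 2, 2 of the 10 genes were called higher and 3 lower, since Xirp1 lost its call and Ttn and Ldb3 gained one. Over all genes that refit called 1993 higher and 2006 lower.

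Atrial markers varied between the hearts of both groups. The 7 atrial markers summed to 2099, 294 and 130 FPKM in the Ctrl hearts and 579, 1359 and 1701 FPKM in the cKO hearts. None of the 7 was called different. Nppa, which the study uses as a marker of hypertrophy, was the largest part of each sum. It was at 1062, 144 and 103 FPKM in Ctrl and 469, 1127 and 938 FPKM in cKO hearts. The sums are therefore no measure of atrial tissue alone. With the 2 hearts highest in atrial markers left out, Tcap, Ankrd1 and Xirp2 kept their calls, and the Xirp1 log2 fold change was 1.07 with an adjusted p of 0.0924. Fibroblast markers summed to 223 to 252 FPKM in Ctrl and 208 to 217 FPKM in cKO hearts, endothelial markers to 109 to 127 and 71.2 to 86.0 FPKM, macrophage markers to 244 to 323 and 188 to 279 FPKM, and smooth muscle markers to 40.2 to 49.3 and 41.3 to 71.4 FPKM. Of the 7 fibroblast markers 2 were called higher and 1 lower, of the 5 endothelial markers 3 were called lower, of the 5 macrophage markers 1 was called lower, and of the 4 smooth muscle markers tested 1 was called higher and 1 lower. Over all genes tested, 16.3% were called higher and 17% lower. The 10 genes are mainly transcribed in striated muscle cells, and the part of these other cell types in their values was not tested.

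Paralogs show whether the cardiac form still dominated its family. Actn2 made up 95.8%, 96.6% and 95.8% of the summed FPKM of the 4 alpha-actinins in Ctrl and 92.8%, 93.2% and 93.9% in cKO hearts, a difference of -2.83 percentage points (exact permutation test, two-sided, p 0.1, the smallest that 3 against 3 hearts allow), which was -4.24 when reads were not divided by gene length. The groups did not overlap, and the non-muscle alpha-actinins were the members called higher. Actn4 went from 17.3 ± 0.730 to 30.0 ± 5.35 FPKM (log2 fold change 0.75, limma adjusted p 0.0057). Actn1 went from 5.08 ± 0.910 to 7.39 ± 1.16 FPKM (0.47, limma adjusted p 0.0491), just under the threshold. The part of cell composition in these values and in the share was not tested. Actn3, the fast skeletal form, stayed at or under 0.186 FPKM.

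Myoz2 took 99.97% of the calsarcin FPKM in Ctrl and 99.92% in cKO hearts (exact permutation p 0.2), with Myoz1 at no more than 0.294 FPKM and Myoz3 listed at 0 in all hearts. Csrp3 took 94.0% ± 1.22 in Ctrl and 94.8% ± 0.602 in cKO hearts (exact permutation p 0.4). Of its paralogs, Csrp2 rose from 5.64 ± 1.05 to 8.25 ± 0.322 FPKM (log2 fold change 0.49, limma adjusted p 0.0223) and Csrp1 was at 19.0 ± 2.74 and 17.6 ± 3.68 FPKM (adjusted p 0.62). Adjusted over the 3 families, no share could have passed the threshold with 3 hearts a group. Reads of such related genes may be divided unevenly where sequences are alike, since the handling of reads with several alignments was not stated.

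Other genes of the same structures were taken from 6 lists of textbook members: other Z-disc proteins, M-band proteins and titin partners, costamere and integrin proteins, targets of YAP and SRF, the calcineurin and NFAT branch, and sarcomere chaperones and turnover. Together 122 of their genes were tested, and 26 were called higher and 21 lower, with a median log2 fold change of 0.05. Over all genes 16.3% were called higher and 17% lower, with a median of -0.02. When the libraries were scaled without the transcripts of the mitochondrial genome, 33 were called higher and 14 lower, beside 2647 higher and 1623 lower over all genes. The count of lower genes rested on the number of hearts as well, at 12 without Ctrl replicate 2, 11 without Ctrl replicate 3 and 7 without the 2 atrial-high hearts, and that of higher genes fell to 17 without Ctrl replicate 2.

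Among 30 other Z-disc genes tested, 8 were called higher and 5 lower, beside 16.3% and 17% of all genes. The list median was 0.07, and -0.01 without cKO replicate 2. Fhl1, a four-and-a-half LIM protein that binds the titin N2B region, was at 50.7, 37.3 and 40.4 FPKM in Ctrl and 250, 369 and 140 FPKM in cKO hearts (log2 fold change 2.44, SE 0.328, limma adjusted p 0.0029). Flnc, the muscle filamin that is recruited to damaged Z-discs, was at 59.7, 55.4 and 43.8 FPKM in Ctrl and 254, 295 and 166 FPKM in cKO hearts (2.12, SE 0.221, adjusted p 0.00148). Both were separated without overlap, and the highest cKO heart was replicate 2 for each, as for Xirp2. The largest decreases were in Cmya5 (myospryn), from 69.5 ± 4.46 to 18.1 ± 2.97 FPKM (-1.89, adjusted p 0.000309), and Myot (myotilin), from 59.3 ± 12.7 to 18.6 ± 4.32 FPKM (-1.63, adjusted p 0.00255).

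Of 18 M-band genes and titin partners tested, 2 were called higher and 7 lower, beside 16.3% and 17% of all genes. The list median was -0.15. The lower count was 4 without Ctrl replicate 2, and 3 without Ctrl replicate 3, without the 2 atrial-high hearts or with no filter on low values. Besides Fhl1, the increase was in Sqstm1 (p62, an autophagy receptor that binds at the titin kinase), from 165 ± 9.53 to 292 ± 35.4 FPKM (log2 fold change 0.82, limma adjusted p 0.00279). The largest decreases were in Fhl2, which binds titin at the N2B region, from 644 ± 88.3 to 320 ± 105 FPKM (-1.05, adjusted p 0.0165), and Trim63 (MuRF1, a ubiquitin ligase at the M-band), from 69.0 ± 9.20 to 45.1 ± 7.24 FPKM (-0.61, adjusted p 0.0208). Fhl1 and Fhl2, relatives that share titin as a partner, thus stood on opposite sides. Without Ctrl replicate 3 the calls of Fhl2 (adjusted p 0.0582) and Trim63 (0.0697) were lost, as was that of Trim63 without Ctrl replicate 2 (0.0704) and that of Fhl2 without the 2 atrial-high hearts (0.081). Ankrd2 and Ankrd23, the paralogs of Ankrd1 that also bind titin, were not called, with log2 fold changes of 1.16 (adjusted p 0.0868) and 0.52 (adjusted p 0.143), and were named after their values were seen.

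Of 26 costamere and integrin genes tested, 6 were called higher and 7 lower, beside 16.3% and 17% of all genes. The list median was 0.07. The lower count was 3 without Ctrl replicate 2, Ctrl replicate 3 or cKO replicate 3, 4 without cKO replicate 1 and 1 without the 2 atrial-high hearts, it was 3 with the atrial covariate and 4 when scaled without mitochondrial transcripts, the higher count was 3 without Ctrl replicate 2, and the median was -0.03 without Ctrl replicate 1. The costamere couples the Z-disc to the membrane and to the matrix outside it. Sntb1 (beta-1-syntrophin) rose from 0.631 ± 0.123 to 3.42 ± 1.34 FPKM (log2 fold change 1.40, limma adjusted p 0.0033) and Itga5 (the fibronectin receptor subunit) from 11.0 ± 0.990 to 21.01 ± 2.56 FPKM (0.87, adjusted p 0.00236). Itgb1bp2 (melusin, an integrin-binding chaperone of muscle) fell from 59.2 ± 8.61 to 35.4 ± 6.56 FPKM (-0.73, adjusted p 0.014). The Sntb1 level was low throughout, and the log2(FPKM + 1) scale understates its change. Itgb1bp2 lost its call without the 2 atrial-high hearts (adjusted p 0.0872).

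Of 24 YAP and SRF target genes and regulators tested, 5 were called higher and none lower, beside 16.3% and 17% of all genes. The list median was 0.12. The count of higher genes was 4 without Ctrl replicate 1, 1 without Ctrl replicate 2, Ctrl replicate 3 or cKO replicate 2, 2 without cKO replicate 1, 3 without cKO replicate 3 and 2 with the atrial covariate, and without cKO replicate 3 a single gene was called lower. Acta1 (skeletal alpha-actin, a fetal gene of the heart) was at 347, 321 and 228 FPKM in Ctrl and 1073, 2391 and 743 FPKM in cKO hearts (log2 fold change 2.07, SE 0.409, limma adjusted p 0.00994), and Acta2 (smooth muscle actin) rose from 18.7 ± 5.10 to 36.0 ± 13.1 FPKM (0.89, adjusted p 0.0453). Acta1 had its highest cKO value in replicate 2, like Ankrd1. The regulators themselves were not called: Yap1 was at 0.04 (adjusted p 0.66), Tead1 at -0.05 (adjusted p 0.674) and Srf at 0.24 (adjusted p 0.0887), and these 3 were named after their values were seen. Acta2 lost its call when Ctrl replicate 2 (adjusted p 0.133) or 3 (0.115) or cKO replicate 1 (0.0807) or 2 (0.0753) was left out, and the actin genes are alike enough in sequence that reads could be divided wrongly between them.

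Of 13 calcineurin and NFAT genes tested, 2 were called higher and 3 lower, beside 16.3% and 17% of all genes. The list median was -0.12. Leaving out any 1 Ctrl heart brought both the higher and the lower count to 1, as leaving out cKO replicate 1 did for the higher count. Rcan1, a target of calcineurin signalling that in turn inhibits the phosphatase, was at 33.6, 29.6 and 25.9 FPKM in Ctrl and 85.5, 104 and 103 FPKM in cKO hearts (log2 fold change 1.68, SE 0.123, limma adjusted p 0.000515). The cKO hearts were close to each other here, unlike for Ankrd1. Rcan3 changed by 0.32 (adjusted p 0.0258), and the calcineurin subunits Ppp3r1 and Ppp3ca by -0.34 (adjusted p 0.0125) and -0.30 (adjusted p 0.0225). Rcan3 lost its call when any heart but cKO replicate 3 was left out (adjusted p 0.0547 to 0.0815), Ppp3ca when any Ctrl heart was left out (0.0674 to 0.0681), and Ppp3r1 (0.113) and Ppp3ca (0.107) without the 2 atrial-high hearts. Myoz2, which ties calcineurin to the Z-disc, was not called, as given above.

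Of 19 chaperone and turnover genes tested, 4 were called higher and 1, Trim63, lower, beside 16.3% and 17% of all genes. The list median was 0.07, and -0.02 without Ctrl replicate 3 or cKO replicate 2. The call of Trim63 was lost without Ctrl replicate 2 or 3, and the lower count was 2 without cKO replicate 1 or 2. Hsp90aa1, the inducible cytosolic HSP90, went from 51.9 ± 9.14 to 191 ± 26.5 FPKM (change on the log2 scale 1.87, SE 0.157, limma adjusted p 0.000839). Hspb1 (HSP27), which binds titin under stress, was at 274, 310 and 174 FPKM in Ctrl and 1020, 979 and 654 FPKM in cKO hearts (1.82, SE 0.255, adjusted p 0.00324). Cryab and Bag3, the best known chaperones of the Z-disc, were not called at 0.42 (adjusted p 0.0593) and -0.12 (adjusted p 0.354), and this pair was named after its values were seen.

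**Figure D4:**
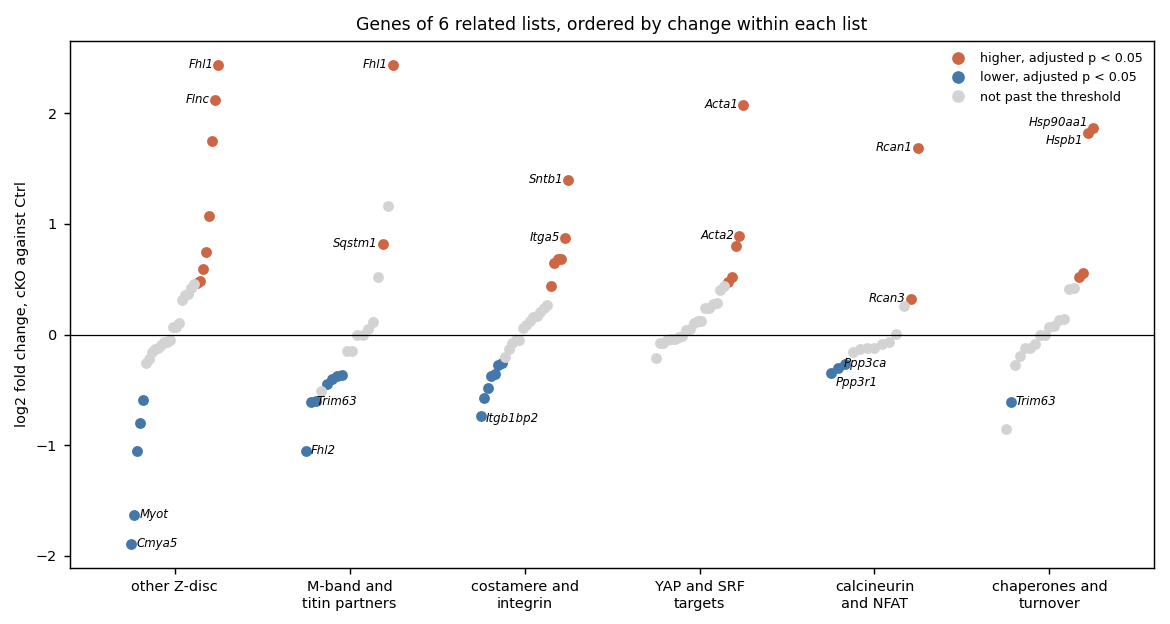
Log2 fold change of cKO against Ctrl on the log2(FPKM + 1) scale (vertical axis) of each tested gene in 6 lists of related genes, ordered by change within each list, with genes past the threshold coloured by direction and named genes labelled. The other Z-disc genes span from Cmya5 at -1.89 to Fhl1 at 2.44, and no YAP or SRF gene is coloured as lower.

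To place titin and Ankrd1 among all protein-coding genes, the genes with the nearest profile over the 6 hearts were taken by the mean absolute difference of log2(FPKM + 1), each gene centred on its own mean. Nearest to Ttn were Nlrp10, Parp4 and Snw1, at mean differences of 0.0368, 0.0406 and 0.0439. These 3 are expressed far below Ttn, Nlrp10 for example at 5.12 to 7.27 FPKM, and share with it the low values of Ctrl replicate 1 and of cKO replicates 1 and 3. Nearest to Ankrd1 were Tnfrsf12a, Synpo2l and Bex1, at 0.187, 0.223 and 0.269. Tnfrsf12a, the receptor of the cytokine TWEAK, was at 36.8, 34.5 and 19.1 FPKM in Ctrl and 99.0, 175 and 85.3 FPKM in cKO hearts, and Synpo2l, an actin-associated Z-disc protein, at 41.6, 35.6 and 23.6 and at 98.7, 166 and 86.9 FPKM. Like Ankrd1, each had its lowest value in Ctrl replicate 3 and its highest in cKO replicate 2. The likeness is a description over 6 hearts that share depth and composition, and genes with small changes are near to many others.

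**Figure D5:**
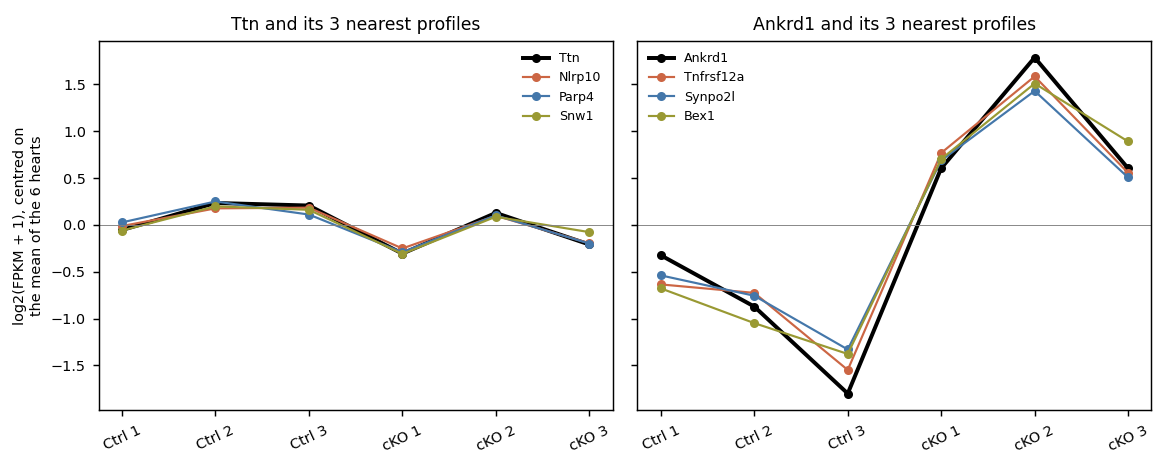
Log2(FPKM + 1) centred on the mean of the 6 hearts (vertical axis) by heart (horizontal axis) for Ttn and its 3 nearest protein-coding genes (left) and for Ankrd1 and its 3 nearest (right). Ankrd1 and its neighbours are lowest in Ctrl replicate 3 and highest in cKO replicate 2, while Ttn and its neighbours stay within a narrow band.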

How the data were processed

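RNA of heart tissue from 3 Ctrl and 3 cKO mice was analysed, grouped by the sample titles, which give the replicate number too. The study's methods describe ventricular tissue of littermates. The authors made poly-A selected paired-end libraries, aligned the reads with HISAT2 2.0.5, counted them per gene with featureCounts 1.5.0-p3 and computed the deposited FPKM values from the count and the gene length. The authors' own test used DESeq2 on counts, with version 1.16.1 in the submitters' processing notes and a later one in the study's methods. Strand and multiple alignments in counting were not given in the sources used here. The gene length deposited beside the values, an other quantity per gene, was used unchanged. The labels name mm9, but of 54409 gene identifiers shared with GENCODE M21, 53499 had identical coordinates, so positions are those of GRCm38.

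FPKM times length was a whole multiple of a step for 100% of values (within 0.01 of a read), which gave the read totals. Counting error is small for the 10 genes, which drew at least 4044 reads in each heart, and not for low genes such as Sntb1. Genes that averaged 0.5 FPKM or more were fitted as log2(FPKM + 1), which understates changes of low genes, with limma 3.58.1 in R 4.3.3 (lmFit, eBayes with trend, two-sided, no covariates, Benjamini-Hochberg over all genes tested, threshold 0.05). Single values were compared by exact permutation. The fit was also run on simulated data in which far fewer genes changed than were called here. That run does not give the error rate of the fit in these hearts. Errors are SD (n = 3) except where SE is given. No value column was left unmapped.

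The 10 genes and all lists were chosen with earlier results of these data known. Named are the 10 genes, Mrps5, the 2 largest called increases and decreases of each list, paralogs of Actn2, Myoz2 and Csrp3, markers, and the 3 nearest profiles of Ttn and Ankrd1. A gene selected by this rule is not reported here, though it remains in the counts. Others are said to have been named after their values were seen. Exon bases are shared with another gene by Ttn (Gm13938), Xirp2 (Gm13601), Nexn (Gm43185), Cmya5 (A630019I02Rik and Gm4814), Sqstm1 (Mrnip), Ppp3r1 (Wdr92) and Rcan3 (Mir700), whose values are uncertain to that extent. Alternatives were the pseudocount, the filter, the scaling, the variance model, voom on the recovered reads, a replicate block, an atrial covariate and leaving out hearts. The atrial covariate was the mean log2 level of the atrial markers. It includes Nppa, so it may also take up a part of the difference between the genotypes. No protein sequence was used here.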

Additional observations from a re-analysis of the deposited data

How the results depend on the processing

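Each of the 10 genes was refitted under 16 alternatives, and of these 160 comparisons 149 kept direction and call, 9 lost a call, 2 gained one and none reversed. Tcap (-1.86 to -1.69) and Xirp2 (1.91 to 2.42) kept their calls under all 16. Ankrd1 ranged from 1.60 to 2.53 and lost its call with no filter on low values (adjusted p 0.0504, from 0.00727 over the alternatives). Xirp1 ranged from 0.61 to 1.07 with adjusted p 0.0217 to 0.109 and lost its call under 8 alternatives: no filter, the atrial covariate, each Ctrl replicate left out, cKO replicates 2 or 3 left out, and the 2 atrial-high hearts left out. With no filter, 1 of the 10 genes was called higher, and more genes entered the adjustment. Leaving out 1 heart at a time gave 2 to 3 of the 10 genes higher and 1 to 3 lower, 1400 to 1993 higher and 1434 to 2006 lower over all genes, and 17 to 27 higher and 11 to 20 lower in the related lists. Leaving out the 2 atrial-high hearts together, an alternative chosen after seeing the data, gave 994 higher and 1024 lower over all genes and 22 higher and 7 lower in the lists, from 2 hearts a group. The Actn2 share of its family differed by -4.24 points when reads were not divided by length. In undivided reads the longer Actn1 (5533 bases) and Actn4 (6127 bases) weigh more beside Actn2 (3795 bases). Scaling without mitochondrially encoded transcripts moved the split over all genes from 2110 higher and 2205 lower to 2647 and 1623. Of 320 comparisons for the 20 other genes selected by the rule, 292 kept their call, 28 lost it and none reversed. Of 112 medians, those of the 6 lists and of all genes, 100 moved by less than the spread between hearts. The median over all genes, -0.02 in the main fit, was 0.05 when scaled without mitochondrially encoded transcripts and 0.0036 with voom.

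Whether hearts with the same replicate number belong together as pairs could not be decided. Their deviations correlated at only -0.06, 0.17 and -0.01 for replicates 1, 2 and 3, but weak correlations between single hearts do not exclude pairing. Replicate 2 was the highest heart in both groups for Ttn, Actn2, Ldb3, Csrp3, Nexn and Xirp2. It was not for Myoz2, Tcap, Ankrd1 and Xirp1. With the replicate block, 1874 genes were higher and 1982 lower, 3 of the 10 genes were higher and 1 lower, and 26 list genes were higher and 18 lower. Nexn, Csrp3, Ttn and Ldb3 came nearer to the threshold there, at limma adjusted p 0.057, 0.0637, 0.0928 and 0.096. Actn2 was at 0.431 and Myoz2 at 0.483.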
